A study of Mus musculus with 8 samples.

Results

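Cdh1, Dapk1, Rassf1, Hic1, Mgmt, Brca1, Esr1, Timp3 and Trp73 are tumour suppressor genes whose promoters are often hypermethylated in human cancers, and their CpG methylation was followed here in mouse leukaemic progenitors. The 9 genes were taken by name, and a cytosine belonged to a gene when it lay inside it or within 2000 bp of it in RefSeq coordinates of mm10. Of 4006353 cytosine positions read in the study, 3121 did. Each gene was divided into an end window at either end (1000 bp outside to 500 bp inside), the rest of the gene between these windows, and a flank beyond each window (the next 1000 bp), and methylated and unmethylated reads were summed over each unit. Of the 45 units of these genes, 17 had at least 20 reads in every library, namely 8 end windows, 8 rests of a gene and 1 flank, and all 9 genes kept at least 1 of them. Over all 49554 genes on the autosomes and X, 34578 units in 22484 genes passed the same minimum.

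The cells were I1DN leukaemic progenitors (I1DN as in the labels) sorted as cKit+/Cd11b- from transplanted mice. For 5 days the mice received AG120, AZA, both drugs, here called the combination, or Vehicle. AG120 is ivosidenib, which blocks the mutant IDH1 enzyme. AZA is azacitidine, a nucleoside analogue that traps DNA methyltransferases. Each of these 4 groups had 2 libraries made by reduced representation bisulfite sequencing, in which restriction fragments rich in CpG are read after conversion of unmethylated cytosines. The labels do not say that the 2 libraries of a group came from separate mice, so every SD and p-value measures only the spread between these libraries, which may be technical. No group of untransplanted or non-leukaemic cells was analysed here, so levels are compared between treatments and with other genes only.

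A promoter rich in CpG sites is normally free of methylation, whether or not its gene is active, while CpG sites inside gene bodies are mostly methylated. Dense methylation of such a promoter is a stable way to silence a gene, and tumours often show it at genes that restrain growth, invasion or DNA damage. Mutant IDH1 makes 2-hydroxyglutarate, which inhibits TET enzymes that remove methylation, whereas AZA lowers methylation as cells divide. The series asks what both drugs together do to methylation in these leukaemias.

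A methylation level here is the percentage of reads in a unit that called a cytosine methylated. Reads were not assigned to single cells, so a change in the share of cells and a change in each cell cannot be told apart. At single positions with at least 10 reads in a library, 58.2% of 8128315 values were at or under 10%. Another 36.5% were at or over 90%, and 5.30% lay between. How many cells or DNA molecules the reads came from was not tested, so a level may not describe all cells sorted. The libraries held 90373925 to 130796962 calls. Of all calls, 41.5 and 49.9% were methylated in the AG120 libraries, 39.2 and 36.9% with AZA, 50.5 and 48.0% with the combination, and 34.1 and 32.6% in Vehicle, and the 17 units held 64097 to 123328 reads a library. Many positions were read in some libraries only. In the Dapk1 start window 4 of 118 positions had a read in all 8 libraries, and in the Hic1 start window 0 of 59 did. Of neighbouring positions at most 50 bp apart in the start windows and the Cdh1 lower end, 45.2% had the same number of reads in a library.

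The promoter sequences below belong to start windows and inner starts described further on. They are RefSeq windows of 300 bases, from 250 bases before a transcript's start to 50 after it, on the GRCm38.p6 assembly, whose coordinates are those of mm10, and they run 5′ to 3′ on the gene's strand. Capitals mark each CpG site that had a read in at least 1 library, and lower case marks all other bases. The table held 13 such windows for 8 of the 9 genes. Among all 32851 windows in it the median number of CpG sites was 7, the 75th percentile was 20 and the 90th was 31.

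The first set shows promoters in start windows that stayed mostly unmethylated. The Dapk1 window (chr13:60601961-60602260, plus strand) has 38 CpG sites, and each was read. The Brca1 window (chr11:101551906-101552205, minus strand) has 19, all read. The Timp3 window (chr10:86300162-86300461, plus strand) has 24, of which 16 were read. Levels of a start window also rest on reads outside these bases. The Timp3 promoter had 0 reads in AG120 replicate 1 and 9 in combination replicate 2, and that of Brca1 had 0 in AG120 replicate 2.
Dapk1: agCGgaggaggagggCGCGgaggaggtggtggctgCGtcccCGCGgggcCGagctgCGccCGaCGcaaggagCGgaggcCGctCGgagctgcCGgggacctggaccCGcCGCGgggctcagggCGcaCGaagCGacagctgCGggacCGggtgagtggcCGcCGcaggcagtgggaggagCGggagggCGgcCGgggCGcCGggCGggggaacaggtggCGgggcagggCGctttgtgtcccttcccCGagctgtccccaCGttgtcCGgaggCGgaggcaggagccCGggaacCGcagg
Brca1: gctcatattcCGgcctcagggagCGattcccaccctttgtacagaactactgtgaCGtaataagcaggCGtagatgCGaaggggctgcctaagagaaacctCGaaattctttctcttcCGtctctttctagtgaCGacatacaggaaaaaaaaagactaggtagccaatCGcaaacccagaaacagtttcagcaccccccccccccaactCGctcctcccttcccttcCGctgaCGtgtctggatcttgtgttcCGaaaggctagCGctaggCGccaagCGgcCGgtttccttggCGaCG
Timp3: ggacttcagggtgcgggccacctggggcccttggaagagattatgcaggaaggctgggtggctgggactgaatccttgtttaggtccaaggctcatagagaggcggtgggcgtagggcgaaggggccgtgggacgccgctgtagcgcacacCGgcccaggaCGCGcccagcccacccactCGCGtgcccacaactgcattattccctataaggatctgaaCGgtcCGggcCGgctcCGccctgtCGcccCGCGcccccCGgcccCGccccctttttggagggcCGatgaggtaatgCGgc

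The second set shows genes with a start farther inside. For Hic1 and Trp73 the outer start is printed too. For Hic1 the windows are chr11:75170206-75170505 and chr11:75168103-75168402 (minus strand), 2103 bp apart, with 20 and 29 CpG sites. For Trp73 they are chr4:154139826-154140125 and chr4:154097124-154097423 (minus strand), 42702 bp apart, with 39 and 6 CpG sites. The inner Esr1 start (chr10:4709908-4710207, plus strand) lies 98169 bp inside the gene and has 12 CpG sites, of which 6 were read.
Hic1, outer start: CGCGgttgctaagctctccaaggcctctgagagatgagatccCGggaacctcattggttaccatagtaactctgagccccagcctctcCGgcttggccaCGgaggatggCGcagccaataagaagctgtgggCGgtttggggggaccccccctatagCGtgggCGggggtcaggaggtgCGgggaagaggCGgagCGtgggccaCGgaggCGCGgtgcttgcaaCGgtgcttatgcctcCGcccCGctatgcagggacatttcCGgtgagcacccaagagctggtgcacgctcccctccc
Hic1, inner start: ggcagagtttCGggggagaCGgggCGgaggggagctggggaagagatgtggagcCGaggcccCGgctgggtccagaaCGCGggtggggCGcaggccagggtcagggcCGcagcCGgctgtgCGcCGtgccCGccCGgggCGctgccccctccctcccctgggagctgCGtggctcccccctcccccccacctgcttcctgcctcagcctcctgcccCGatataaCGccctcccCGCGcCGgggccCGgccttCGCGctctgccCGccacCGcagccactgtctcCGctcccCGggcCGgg
Trp73, outer start: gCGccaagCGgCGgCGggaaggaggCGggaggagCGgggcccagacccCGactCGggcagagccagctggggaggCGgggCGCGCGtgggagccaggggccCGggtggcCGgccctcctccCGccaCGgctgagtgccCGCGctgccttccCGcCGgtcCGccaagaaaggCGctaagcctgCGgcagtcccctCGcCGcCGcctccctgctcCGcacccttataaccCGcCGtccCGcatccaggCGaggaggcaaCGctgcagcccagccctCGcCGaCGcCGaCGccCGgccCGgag
Trp73, inner start: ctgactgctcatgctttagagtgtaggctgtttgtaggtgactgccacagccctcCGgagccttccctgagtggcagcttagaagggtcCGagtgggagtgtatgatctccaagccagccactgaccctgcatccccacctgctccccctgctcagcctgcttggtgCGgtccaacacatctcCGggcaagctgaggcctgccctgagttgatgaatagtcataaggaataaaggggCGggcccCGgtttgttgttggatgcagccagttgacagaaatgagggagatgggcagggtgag
Esr1, inner start: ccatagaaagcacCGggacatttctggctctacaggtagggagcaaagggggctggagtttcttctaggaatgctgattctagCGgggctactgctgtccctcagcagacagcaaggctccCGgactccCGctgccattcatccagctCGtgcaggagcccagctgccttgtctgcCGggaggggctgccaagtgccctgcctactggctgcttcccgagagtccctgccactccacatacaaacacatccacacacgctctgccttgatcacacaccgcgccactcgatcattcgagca

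Across the 8 libraries the end windows of these genes were mostly unmethylated and the rest of most genes was mostly methylated. The mean level over 8 libraries was 0.0643% in the Brca1 start window, 2.49% in that of Dapk1, 5.29% in that of Trp73, 8.15% in that of Hic1, 8.79% in that of Timp3 and 27.1% in that of Rassf1. The lower-coordinate end of Cdh1, the only member without a window in the promoter table, had 10.2%. Of all 9867 start windows in the study, 82.7% had a mean under 20%, and the median was 2.01%. The members ran from the 1.31th percentile of all start windows (Brca1) to the 85.8th (Rassf1), and all but Brca1 were at the 56.5th or above.

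The far end window of Mgmt stood apart from these with 92.4%, where the median of 1365 far end windows was 39.7%. Among the rests of the genes, Brca1 (93.6%), Mgmt (82.7%), Cdh1 (75.2%), Dapk1 (71.5%), Esr1 (69.0%) and Trp73 (44.8%) were followed by Hic1 (21.1%) and Rassf1 (6.09%). The median over 15853 such units was 61.7%. Rassf1 was at the 8.45th percentile of them, and part of its rest is the promoter window of a second RefSeq start, 3149 bp inside the gene, where every library was at or under 9.19%. Most values at single positions lay at either extreme. With at least 10 reads in a library, 91.2% of 1291 values in the 6 start windows were at or under 10%, 4.26% were at or over 90%, and 4.57% lay between. In the 8 rests 48.2% were at or under 10% and 45.2% at or over 90%, of 4555 values.

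**Figure D1:**
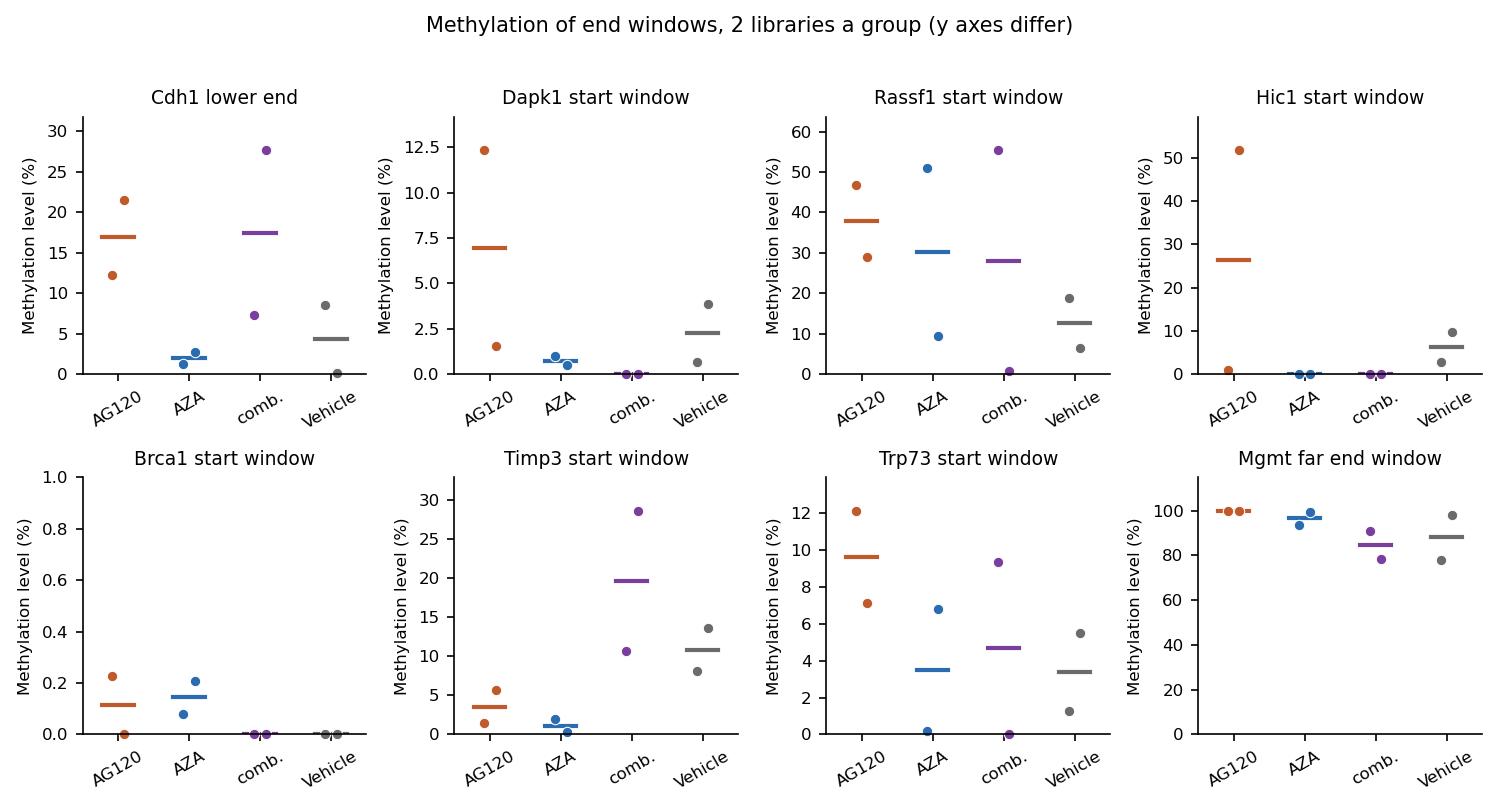
Methylation level (y axis, %, a different range in each panel) of the 8 end windows, by group (x axis), with 1 point for each of 2 libraries and a bar at their mean. In 5 of the 8 windows every library lies at or under 28.6%, the Mgmt far end lies at 78.2% or above, and the 2 libraries of a group often lie as far apart as the groups do.

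The genes of cell adhesion and invasion come first. Cdh1 encodes E-cadherin, the adhesion molecule of epithelial cell junctions. Its lower end (chromosome 8, 106602350 to 106603850) had 12.3 and 21.5% in the AG120 libraries, 1.23 and 2.68% with AZA, 7.34 and 27.6% with the combination, and 8.56 and 0.0986% in Vehicle. Both AG120 libraries were above both Vehicle libraries, while the combination and Vehicle overlapped. Reads in this window came from 25 to 78 of 97 positions. Of the positions with at least 10 reads, 0 to 6 a library were at or over 90%, and most others were at 0. The rest of Cdh1 had 70.1 and 85.7% with AG120, 75.5 and 70.2% with AZA, 70.0 and 85.3% with the combination, and 63.0 and 81.4% in Vehicle, with all groups overlapping.

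Timp3 encodes an inhibitor of the matrix metalloproteinases, held in the extracellular matrix, and the gene overlaps the interval of Syn3. Its start window (chromosome 10, 86299412 to 86300912) had 1.48 and 5.65% with AG120, 1.97 and 0.273% with AZA, 10.7 and 28.6% with the combination, and 8.07 and 13.6% in Vehicle. AG120 alone and AZA alone each lay below Vehicle without overlap, whereas the combination lay above both single drugs and overlapped Vehicle. At the 19 positions that both combination libraries together read 10 times or more, the combination (10.7 and 29.5%) still lay above both single drugs. There AG120, with 3.34 and 6.98%, and AZA, with 0 and 0.269%, overlapped Vehicle, with 0.0793 and 12.9%. The combination libraries themselves read largely different positions. Of the window's reads, the promoter printed above held 1373 of 1424 in combination replicate 1 and 9 of 1867 in combination replicate 2. Of the 102 positions in the window, 0 were read in all 8 libraries, so these levels do not compare the same positions. In combination replicate 2, 13 positions had at least 10 reads, of which 1 was at or over 90% and 5 lay between 10 and 90%. The rest of Timp3 was not kept, with 8 reads in AG120 replicate 1.

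Among the genes of apoptosis and growth signalling, Dapk1 encodes a calmodulin-dependent kinase that promotes cell death. Its start window (chromosome 13, 60600723 to 60602223) had 12.3 and 1.58% with AG120, 0.976 and 0.494% with AZA, 0 and 0% with the combination, and 0.660 and 3.89% in Vehicle. The combination was the only group with no methylated read, in 2778 and 2024 reads, which allow levels of up to 0.108 and 0.148% (3 counts of the total, counting error only). A read counts at each position it covers, so these limits, and those below that span several positions, are too low. The combination lay below each of the other groups without overlap. AG120 lay above AZA, and Vehicle overlapped both. In AG120 replicate 1, 12 of 59 positions with at least 10 reads were at or over 90%, all between 229 and 400 bp inside the gene start, and 45 were at 0. The transcript whose promoter is printed above starts 488 bp inside the gene. Over the 38 CpG sites of that promoter the level was 26.5 and 0.0282% with AG120, 1.49 and 0.560% with AZA, 0 and 0% with the combination, and 1.17 and 0.985% in Vehicle.

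Part of this separation rests on positions that the combination libraries hardly read. At the 45 of 118 positions that both combination libraries together read 10 times or more, a choice made after the values were seen, the start window of Dapk1 had 0 and 2.94% with AG120, 1.46 and 0.0430% with AZA, 0 and 0% with the combination, and 0 and 7.06% in Vehicle. There AG120 replicate 1 and Vehicle replicate 1 were at 0 like the combination, which then overlapped AG120 and Vehicle. The combination stayed below AZA, but the 0.0430% of AZA replicate 2 came from 2 methylated of 4653 reads. All 857 methylated reads of AG120 replicate 1 and all 50 of Vehicle replicate 1 lay at the other positions, while 143 of the methylated reads of AG120 replicate 2 and 351 of those of Vehicle replicate 2 lay at these 45.

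An absence of methylated reads was common in the combination libraries. Of all 9867 start windows, 33.3 and 31.1% had no methylated read there, against 24.8 and 23.4% with AG120, 17.5 and 14.9% with AZA, and 12.2 and 10.6% in Vehicle, and both libraries of a group had none in 16.1% of windows with the combination and in 3.41% in Vehicle. The part of this in the Dapk1 values was not tested.

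The rest of Dapk1 (60602224 to 60762690) went the other way. It had 83.5 and 67.2% with AG120, 72.7 and 48.8% with AZA, 88.9 and 92.1% with the combination, and 75.3 and 43.2% in Vehicle. The combination was above all other libraries, and the 2 Vehicle libraries and the 2 AZA libraries each lay far apart. Only 4 of 369 positions of this unit were read in all 8 libraries, and each library read 98 to 186 of them.

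Rassf1 encodes a scaffold of Ras and Hippo signalling whose long isoform is among the genes most often silenced by methylation in human tumours. The start window (chromosome 9, 107550434 to 107551934) also holds parts of Zmynd10 and Gm34106. It had 46.8 and 29.0% with AG120, 51.0 and 9.34% with AZA, 55.3 and 0.669% with the combination, and 18.7 and 6.40% in Vehicle. Both AG120 libraries were above both Vehicle libraries, and the 2 libraries of the combination were the highest and the lowest of all 8.

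The window is made of a methylated and an unmethylated stretch, a division at 300 bp outside the gene start that was chosen after the values were seen. The 20 positions of the outer part, 649 to 973 bp outside the gene, had 96.1 and 99.8% with AG120, 94.4 and 37.6% with AZA, 100 and 100% with the combination, and 100 and 33.8% in Vehicle. The 34 positions of the inner part had 14.7 and 2.94% with AG120, 0.105 and 6.06% with AZA, 0 and 0% with the combination, and 2.32 and 5.23% in Vehicle. The parts did not overlap in any library. The outer part held 39.4 and 26.9% of the window's reads with AG120, 53.9 and 10.4% with AZA, 55.3 and 0.669% with the combination, and 16.8 and 4.08% in Vehicle, and the libraries had the same order by this share as by the level of the window. In combination replicate 2 the outer part rested on 7 reads.

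**Figure D2:**
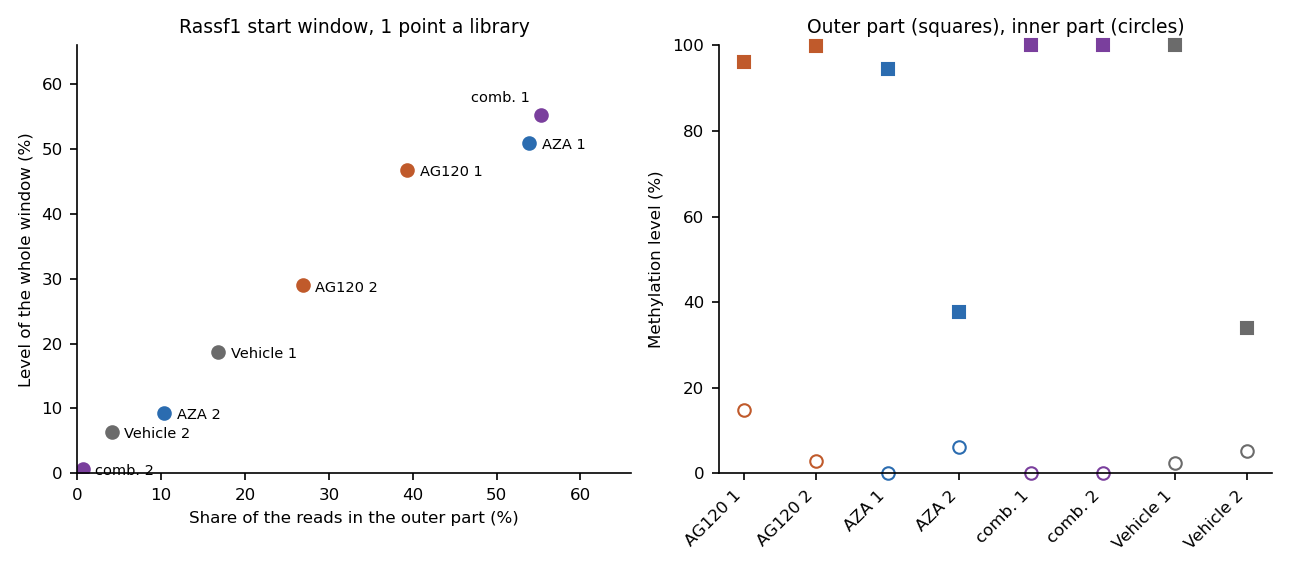
Left, level of the Rassf1 start window (y axis, %) against the share of its reads that fell in the outer part (x axis, %), 1 labelled point a library. Right, level (y axis, %) of the outer part (squares) and the inner part (circles) in each library; the outer part runs from 33.8 to 100%, the inner part from 0 to 14.7%.

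At 6 positions of the inner part, 157 to 206 bp inside the gene, every library had at least 10 reads. The level there was 0 in 6 libraries at all 6 positions. The exceptions were AG120 replicate 1, with 32.9% at 3 positions and 100% at 1, from 79 reads, and AZA replicate 2, with 19.05% at 1 position from 357 reads. The rest of Rassf1 had 20.9 and 0.116% with AG120, 7.06 and 3.93% with AZA, 7.84 and 0.508% with the combination, and 1.86 and 6.48% in Vehicle, and all 4 groups overlapped.

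The transcription factors follow. Hic1 encodes a zinc finger repressor that acts with p53, and its name, hypermethylated in cancer, comes from its methylation in tumours. Its start window (chromosome 11, 75169755 to 75171255) had 1.05 and 51.7% with AG120, 0 and 0% with AZA, 0 and 0% with the combination, and 2.74 and 9.64% in Vehicle. No library with AZA, alone or combined, held a methylated read there, in 122 to 1100 reads, which allow up to 0.273 and 0.526% with AZA and up to 1.84 and 2.46% with the combination. All 4 libraries without AZA held some. In AG120 replicate 1 they were 6 reads, all in the stretch 301 to 347 bp outside the start, where both AZA libraries and combination replicate 1 had no read. In the remaining part of the window this library had 0 methylated of 478 reads, like the libraries with AZA. The 51.7% of AG120 replicate 2 came from 145 reads at 2 positions, 1 of them at or over 90% and 1 at 0, and combination replicate 1 had reads at 1 position only.

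Farther in, the second Hic1 promoter printed above was methylated in part. It had 11.4 and 38.6% with AG120, 35.7 and 12.2% with AZA, 0 and 35.2% with the combination, and 35.6 and 29.5% in Vehicle, and all groups overlapped. Over all reads of the 8 libraries the level was 26.1% at this inner start and 3.95% at the outer one. AG120 replicate 2 went the other way, with 38.6% at the inner start and 51.7% at the outer one, and combination replicate 1 was at 0 at both. The rest of the gene (75161878 to 75169754, inside the interval of Smg6) had 13.9 and 26.9% with AG120, 18.4 and 15.2% with AZA, 14.8 and 38.7% with the combination, and 16.6 and 24.5% in Vehicle, with all groups overlapping.

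Trp73 encodes p73, a relative of p53 with an outer promoter and an internal one that gives N-terminally shortened forms. The start window (chromosome 4, 154139375 to 154140875) had 12.1 and 7.10% with AG120, 0.170 and 6.82% with AZA, 9.33 and 0.0388% with the combination, and 1.25 and 5.51% in Vehicle. AG120 was above Vehicle without overlap, and AZA and the combination overlapped it. At the 47 positions that both combination libraries together read 10 times or more, AG120 (0 and 1.33%) overlapped Vehicle (0.611 and 4.34%). The flank outside it (154140876 to 154141875) had 0 and 4.14% with AG120, 0 and 4.57% with AZA, 0 and 0% with the combination, and 9.29 and 14.7% in Vehicle, so that Vehicle was above all 6 libraries from treated mice.

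The starts of Trp73 lay far apart in level. At the outer promoter printed above the level was 1.35 and 0% with AG120, 0 and 0% with AZA, 15.4 and 0% with the combination, and 0.595 and 2.60% in Vehicle. At the inner one, in the 6 libraries with at least 20 reads, it was 99.6% in AG120 replicate 2, 99.8 and 83.5% with AZA, 56.5% in combination replicate 2, and 98.9 and 98.6% in Vehicle. Every one of these 6 was above every library at the outer promoter. The rest of the gene had 42.2 and 55.3% with AG120, 41.1 and 53.4% with AZA, 54.5 and 39.8% with the combination, and 40.7 and 31.4% in Vehicle, with both single drugs above Vehicle. Every library read 2 positions in it at least 10 times. At 67828 bp inside the gene the level was 0 in all 8 libraries. At 47277 bp, with at least 38 reads in every library, the level was 100 and 53.7% with AG120, 42.1 and 40.9% with AZA, and 100% in both libraries of the combination and in both of Vehicle.

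Esr1 encodes oestrogen receptor alpha, a ligand-activated transcription factor. Its outer start window had reads in 2 libraries only and was not kept. The rest of the gene (chromosome 10, 4612490 to 5005132) had 82.9 and 53.5% with AG120, 75.1 and 70.6% with AZA, 81.5 and 73.2% with the combination, and 63.3 and 51.9% in Vehicle. AZA and the combination were above both Vehicle libraries, and AG120 overlapped them. The inner start printed above had 41.9 and 59.7% with AG120, 58.9 and 76.4% with AZA, 33.9 and 54.5% with the combination, and 71.4 and 15.2% in Vehicle, a range within Vehicle alone that spanned nearly all other libraries.

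**Figure D3:**
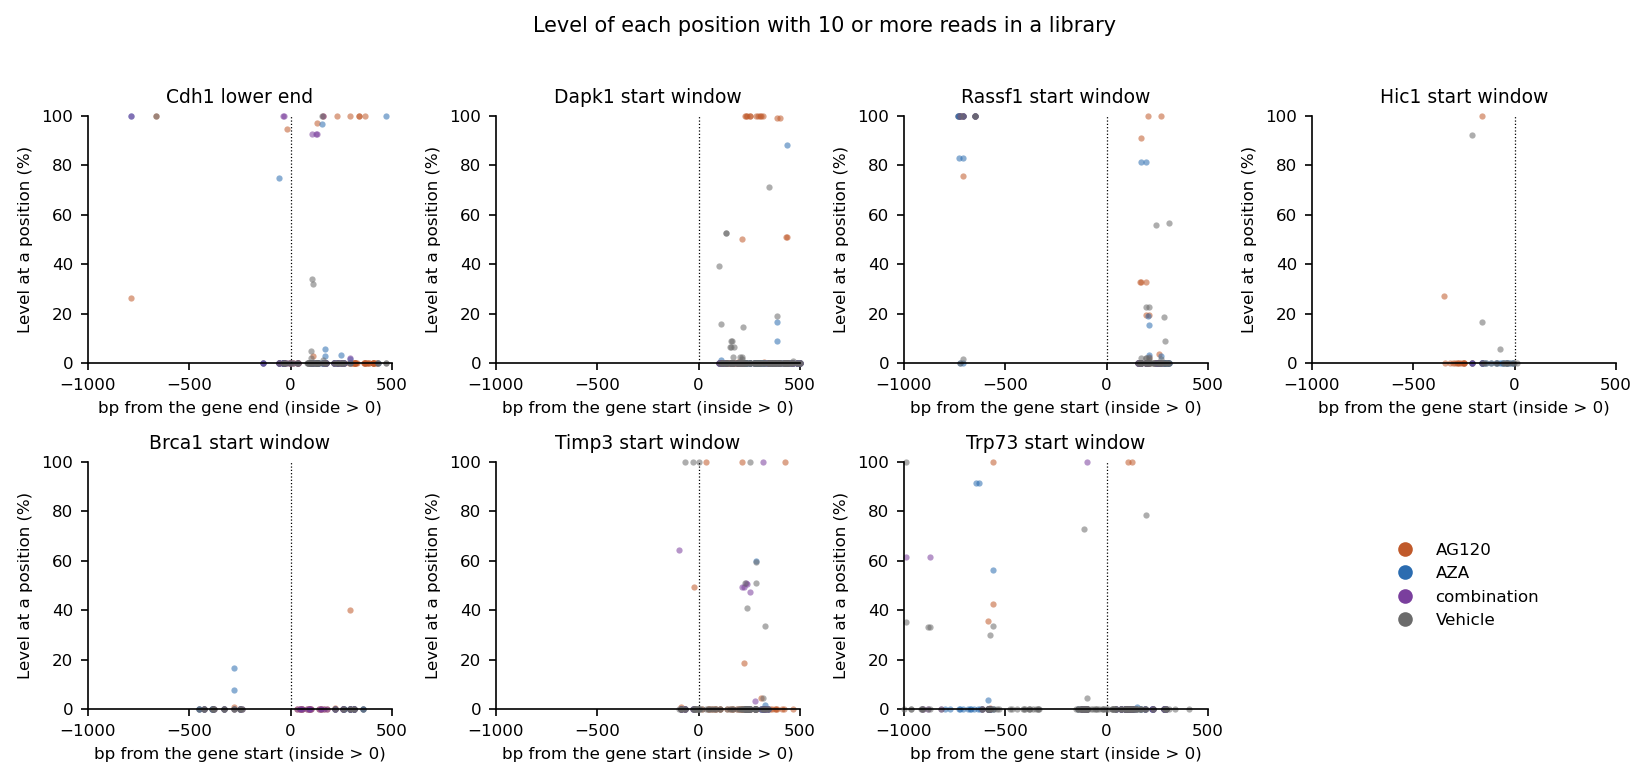
Level at single positions (y axis, %) against distance from the gene start, or from the lower end for Cdh1 (x axis, bp, inside the gene to the right), for positions with at least 10 reads in a library, coloured by group. Most points lie at 0, and in the 6 start windows 59 lie between 10 and 90% and 55 at or over 90%. In Rassf1 most of the highest points lie 649 bp or more outside the start.

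The last pair serves DNA repair. Brca1 encodes a protein needed for homologous recombination, and its start window (chromosome 11, 101551455 to 101552955) is shared with Nbr1. It was the least methylated of the 17 units, with 0.227 and 0% with AG120, 0.0787 and 0.209% with AZA, 0 and 0% with the combination, and 0 and 0% in Vehicle. Its SD over the 8 libraries was 0.0987 points, at the 1.30th percentile of start windows. At 4 positions 220 to 312 bp inside the gene, each read 93 to 317 times in every library, a single library, AG120 replicate 1, had methylated reads, with 0.631% at 1 position. The rest of Brca1 had 100 and 99.7% with AG120, 100 and 74.7% with AZA, 100 and 77.7% with the combination, and 96.6 and 100% in Vehicle, from 139 to 1193 reads.

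Mgmt encodes the methyltransferase that removes alkyl groups from guanine. Its start window was not kept, since only 4 libraries had 20 reads or more: 42.9% in AZA replicate 2, 58.0 and 28.4% with the combination, and 34.6% in Vehicle replicate 1. No level lay near 0 in these 4, which read at most 16 of its 17 positions. The far end window (chromosome 7, 137127693 to 137129193) had 100 and 99.8% with AG120, 93.8 and 99.3% with AZA, 91.1 and 78.5% with the combination, and 78.2 and 98.3% in Vehicle. AG120 was above Vehicle without overlap, and the combination was below both single drugs. The rest of Mgmt had 82.4 and 89.2% with AG120, 91.5 and 82.2% with AZA, 73.4 and 84.1% with the combination, and 81.7 and 77.2% in Vehicle, both single drugs lying above Vehicle. The unit nearest to the minimum of reads that was kept, the Hic1 start window, had 122 reads in its shallowest library, and the nearest one not kept, the outer flank of Hic1, had 19.

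**Figure D4:**
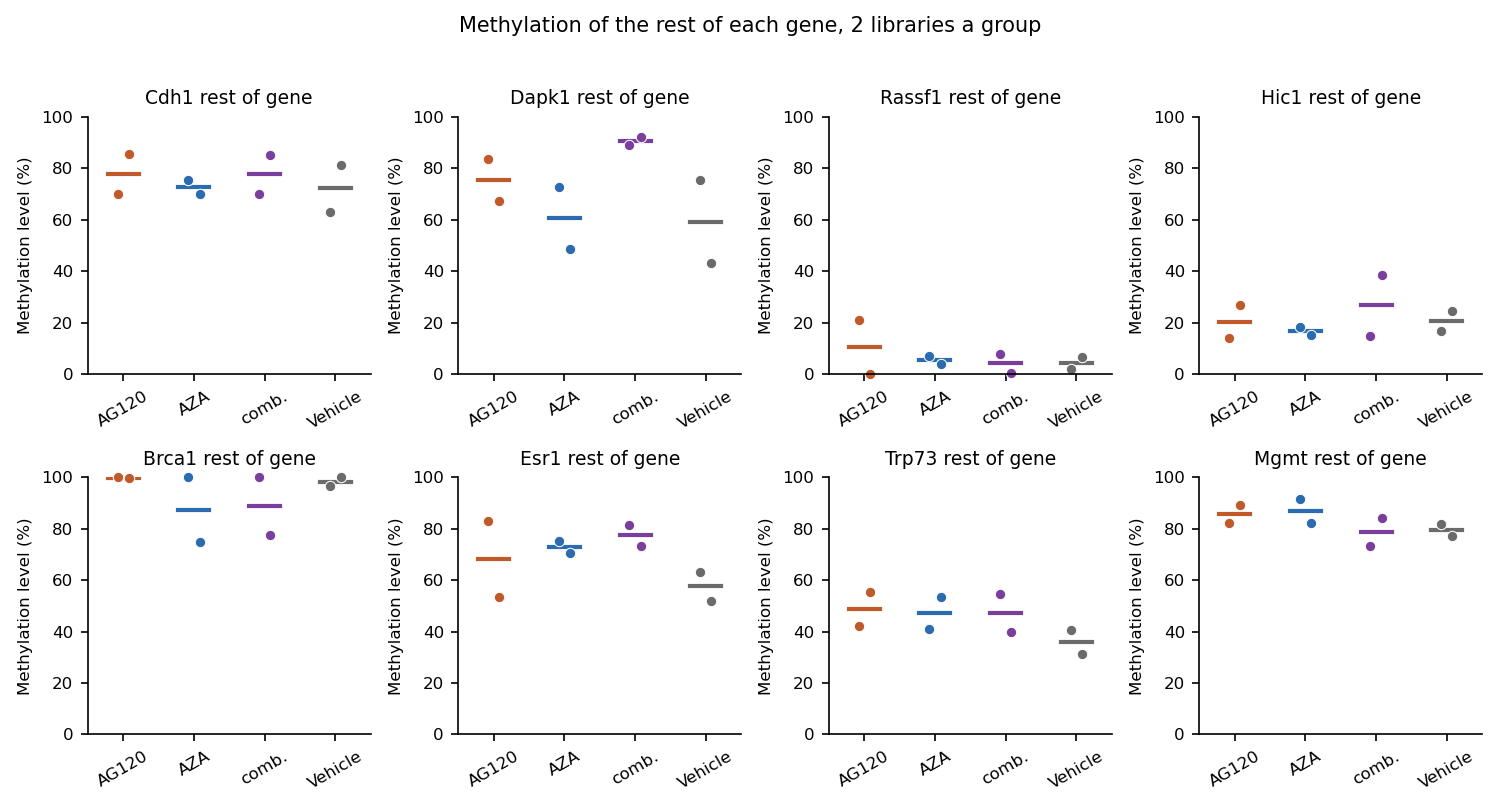
Methylation level (y axis, 0 to 100%) of the rest of 8 genes by group (x axis), 1 point for each of 2 libraries and a bar at their mean. Rassf1 and Hic1 lie at or under 38.7% in every library, and Dapk1 with the combination lies at 88.9 and 92.1%, above its other libraries.

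The comparisons of groups were tested by edgeR's quasi-likelihood test, two-sided, on all 34578 units, with p-values adjusted over all of them by Benjamini and Hochberg at 0.05. In the 5 pairwise comparisons, the 2 drug factors and the interaction, 0 of the 17 units passed, and 0% of all units did. Where groups do not overlap, each of its libraries lies on the same side of both libraries of the other group. The single-drug and combination comparisons with Vehicle share the Vehicle libraries, so their values are not independent of each other.

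AG120 against Vehicle asks what inhibition of mutant IDH1 does alone. Of the 17 units 14 were higher with AG120 and 3 lower, with a median difference of 6.31 points, while 52.6% of all units were higher and their median was 0.207 points. The groups did not overlap in 6 units that were higher with AG120 (17.8% of all units), namely the Cdh1 lower end, both Mgmt units, the Rassf1 start window and the rest and start window of Trp73, and in 2 that were lower (16% of all units), the Timp3 start window and the Trp73 flank. The largest difference was in the Rassf1 start window, 37.9% ± 12.6 with AG120 and 12.6% ± 8.72 in Vehicle (SD, 2 libraries each), which moved with the share of reads in its outer part as given above. The edgeR adjusted p of all 17 was 1. Of them 0 had an unadjusted p under 0.05 (3.65% of all units), and the smallest was 0.0934 for the Mgmt far end. By the likelihood ratio test 0.923% of all units were called and by DESeq2 2.34%, with 0 members in either, and limma called 0 units. Without 1 library in turn, 11 to 14 of the 17 were higher. The AG120 libraries, like those with AZA and with the combination, had a larger share of methylated calls over all positions than Vehicle. The part of such differences in these counts, and in the comparisons below, was not tested.

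What AZA does alone is asked by AZA against Vehicle. Of the 17 units 10 were higher with AZA and 7 lower, with a median of 0.144 points, beside 47.3% higher and a median of -0.0972 points over all units. Without AZA replicate 1 only 6 were higher, and without Vehicle replicate 1 only 7. The groups did not overlap in 4 units that were higher (14.5% of all units), the rests of Mgmt, Esr1 and Trp73 and the Brca1 start window, and in 3 that were lower (18.3% of all units), the start windows of Hic1 and Timp3 and the Trp73 flank. The Brca1 start window counts here on 1 and 2 methylated reads with AZA, below the 0.243 and 0.308% that 0 methylated reads allow in the Vehicle libraries. The Esr1 rest had 72.9% ± 3.17 with AZA and 57.6% ± 8.06 in Vehicle, and the Timp3 start window 1.12% ± 1.20 with AZA and 10.8% ± 3.89 in Vehicle (SD, 2 libraries each). The edgeR adjusted p was 1 for all 17, and 0 had an unadjusted p under 0.05 (2.53% of all units). The smallest was 0.0783 for the Hic1 start window. Of all units, the likelihood ratio test called 0.607% and DESeq2 1.26%, with 0 members in either, and limma called 0 units.

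The combination against Vehicle asks what both drugs do together. Of the 17 units 10 were higher with the combination and 6 lower, and the Brca1 start window was at 0 in both groups. The median was 1.30 points, beside 51.1% higher and a median of 0.0866 points over all units. Without combination replicate 1, and likewise without Vehicle replicate 1, 8 were higher and 8 lower. The groups did not overlap in 2 units that were higher (18% of all units), the rests of Dapk1 and Esr1, and in 3 that were lower (19.1% of all units), the start windows of Dapk1 and Hic1 and the Trp73 flank. In the Dapk1 rest the levels were 90.5% ± 2.22 with the combination and 59.3% ± 22.7 in Vehicle, a difference of 31.2 points (edgeR adjusted p = 0.853). In the Dapk1 start window they were 0% with the combination and 2.27% ± 2.28 in Vehicle (edgeR adjusted p = 0.826). The Trp73 flank had 0% with the combination and 12.01% ± 3.84 in Vehicle (edgeR adjusted p = 0.900). These 3 were the members with an unadjusted p under 0.05 (5.53% of all units). Of their differences, that in the Dapk1 start window ended in overlap at the positions the combination read, as given above. In the Trp73 flank the same choice left out none of the 26 positions, so it could not change that difference. The libraries still read unlike positions of the flank. Combination replicate 1 read 6 and Vehicle replicate 1 read 13 of them, and 3 were read in all 8 libraries. The likelihood ratio test called 1 member, the Dapk1 start window (adjusted p = 0.0364, 1.88% of all units called), DESeq2 called that window and the Trp73 flank (adjusted p = 0.00667 and 0.0356, 4.86% of all units called), and limma called 0 units.

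The combination against AZA asks what AG120 adds to AZA. Of the 17 units 8 were higher and 8 lower with the combination, with a median of 0 points, beside 53.1% higher and a median of 0.280 points over all units. Without combination replicate 1, 6 were higher and 10 lower. The groups did not overlap in 3 units that were higher (18.4% of all units), the Cdh1 lower end, the Dapk1 rest and the Timp3 start window, and in 3 that were lower (15.9% of all units), the start windows of Dapk1 and Brca1 and the Mgmt far end. The Brca1 start window had 0.0787 and 0.209% with AZA, on 1 and 2 methylated reads. There 0 methylated reads allow 0.0942 and 0.233% with the combination. At the positions the combination read, the Dapk1 start window had 0.0430% in AZA replicate 2, from 2 methylated reads. The Timp3 start window had 19.6% ± 12.7 with the combination and 1.12% ± 1.20 with AZA (edgeR adjusted p = 0.949). The Dapk1 rest had 90.5% ± 2.22 with the combination and 60.8% ± 16.9 with AZA (edgeR adjusted p = 0.928). With the Dapk1 start window (edgeR adjusted p = 0.924), these were the 3 members under 0.05 before adjustment (5.19% of all units). DESeq2 called the Dapk1 and Timp3 start windows (adjusted p = 0.0280 and 0.0343, 4.87% of all units called), the likelihood ratio test 0 members (2.04% of all units), and limma 0 units.

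In the combination against AG120, which asks what AZA adds to AG120, 5 units were higher and 12 lower with the combination, with a median of -2.07 points, beside 48.0% higher over all units and a median of 0. The groups did not overlap in 2 units that were higher (14.4% of all units), the Dapk1 rest and the Timp3 start window, and in 3 that were lower (15.9% of all units), the start windows of Dapk1 and Hic1 and the Mgmt far end. The Mgmt far end had 84.8% ± 8.87 with the combination and 99.9% ± 0.164 with AG120 (edgeR adjusted p = 1). The Dapk1 start window had 0% with the combination and 6.95% ± 7.60 with AG120 (edgeR adjusted p = 0.896). These 2 were under 0.05 before adjustment (4.46% of all units). The likelihood ratio test called the Dapk1 start window (adjusted p = 0.00811, 1.94% of all units called), and DESeq2 called it with the Mgmt far end (adjusted p = 0.000581 and 0.0489, 4.01% of all units called). Limma called 0 units.

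**Figure D5:**
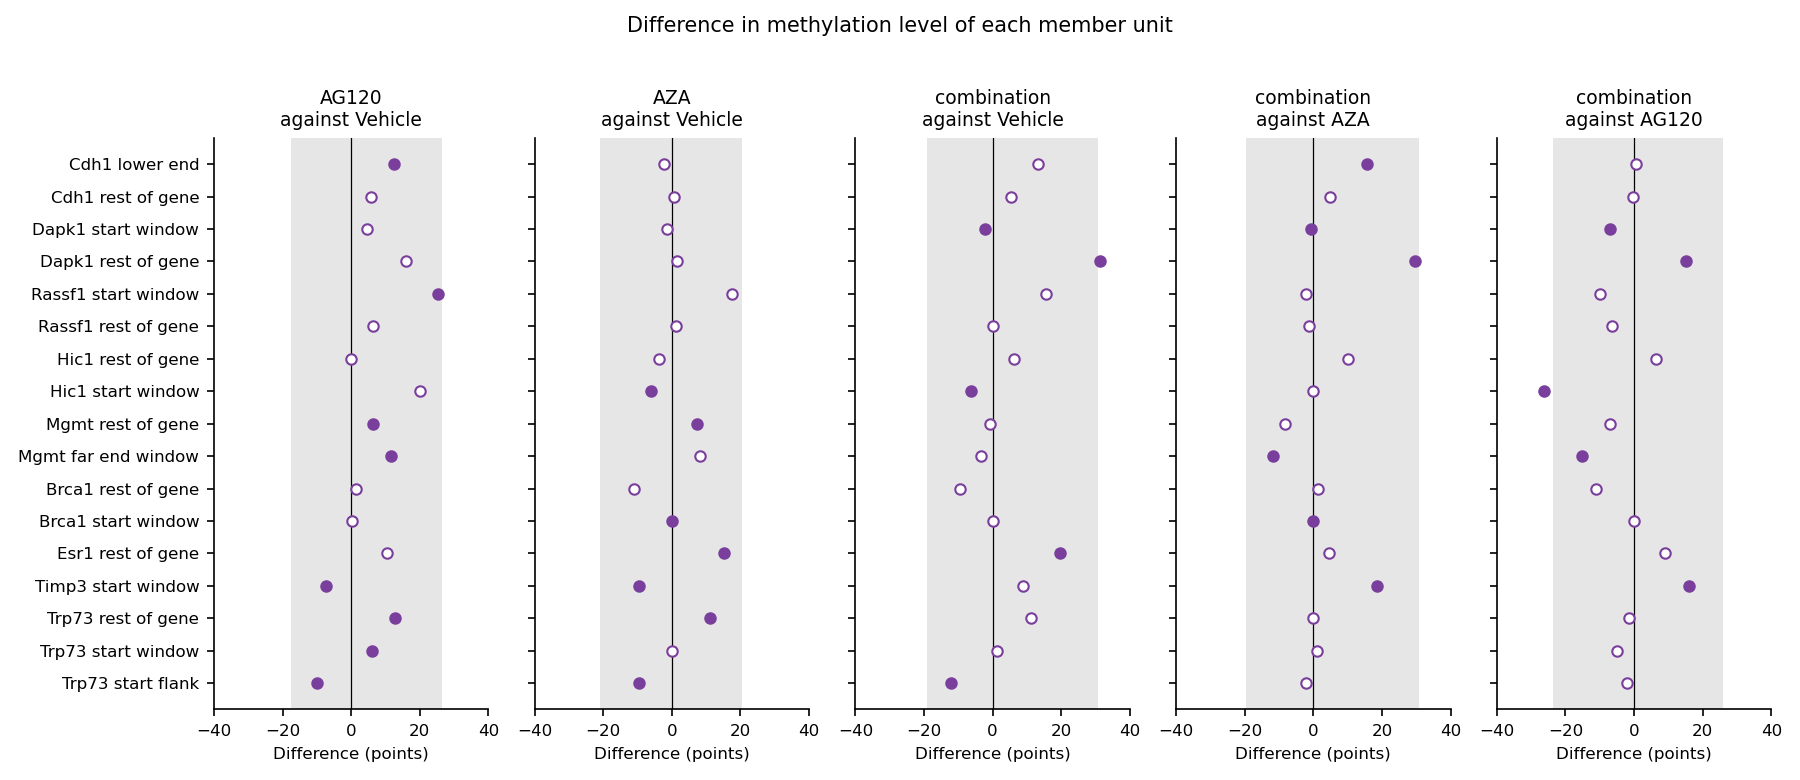
Difference in methylation level (x axis, percentage points, the group named first minus the other) of the 17 units (y axis) in the 5 pairwise comparisons. Filled points mark units whose groups did not overlap, and grey spans the central 90% of all 34578 units, with every kind of unit together. Rests of genes varied more between libraries (median SD 12.5 points over all of them) than start windows (2.63 points). All members lie within it except the Dapk1 rest in the combination against Vehicle and the Hic1 start window in the combination against AG120.

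With each drug as a factor, 4 libraries stood against 4. The 4 libraries with AG120 were higher than the 4 without it in 13 of 17 units and lower in 4, with a median of 4.93 points, beside 56.6% higher and a median of 0.613 points over all units. Without 1 library in turn 10 to 15 were higher. In 0 units did the libraries not overlap, upward or downward, beside 2.54% and 2.04% of all units. The rest of Dapk1 had 82.9% ± 11.1 with AG120 and 60.03% ± 16.4 without it (edgeR adjusted p = 0.898). The Dapk1 start window was the other member under 0.05 before adjustment (5.33% of all units), at 3.48% ± 5.95 with AG120 and 1.504% ± 1.60 without it (edgeR adjusted p = 0.930). Its mean was higher with AG120 whereas the fitted effect, an average of the contrasts with and without AZA on the log odds scale, was negative. Calls by the likelihood ratio test covered 1.89% of all units and those by DESeq2 4.89%, with 0 members in either, and limma called 0 units.

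For AZA as a factor, 9 units were higher with it and 8 lower, with a median of 0.0151 points, beside 49.1% higher and a median of -0.0326 points over all units. Without Vehicle replicate 1 only 5 were higher, and without either replicate 2 of the combination or of Vehicle only 6. The libraries did not overlap in 1 unit, the Hic1 start window, which was lower with AZA (1.51% of all units), and in 0 that were higher (0.954% of all units). Without the stretch beyond 300 bp outside the Hic1 start, AG120 replicate 1 was at 0 and the libraries overlapped, and its 1.05% in the whole window is below the 1.84 and 2.46% that 0 methylated reads allow with the combination. It had 0% with AZA and 16.3% ± 23.9 without it (edgeR adjusted p = 1). The Dapk1 start window had 0.367% ± 0.468 with AZA and 4.61% ± 5.32 without it (edgeR adjusted p = 1). These 2 were under 0.05 before adjustment (3.68% of all units). The likelihood ratio test called both (adjusted p = 0.0248 for Hic1 and 0.0279 for Dapk1, 1.22% of all units called), DESeq2 called both (adjusted p = 0.0217 and 0.00158, 3.05% of all units called), and limma called 0 units.

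The interaction tests whether the effect of AG120 differed with and without AZA, and 0 of the 17 units passed edgeR's quasi-likelihood test, with an adjusted p of 1 for each. The start windows of Dapk1 and Timp3 were under 0.05 before adjustment (3.23% of all units). In the Timp3 window the combination was above both single drugs, with 19.6% ± 12.7 against 3.56% ± 2.94 with AG120 and 1.12% ± 1.20 with AZA. The likelihood ratio test called 0.992% of all units and 0 members, DESeq2 called 2.58% and both of these windows (adjusted p = 0.0345 and 0.0493), and limma called 0 units.

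A list of 40 other tumour suppressor genes reported as methylated in human tumours stood beside these genes. Of them 27 had a kept end window, 30 windows in all, of which 21 had a mean under 20%, with a median level of 3.62%. In the combination against Vehicle 14 of the 30 were higher and 16 lower, with a median of -0.948 points, beside 43.1% higher and a median of -0.177 points over all end windows. The counts of higher and lower windows were 12 and 18 for AG120 against Vehicle, 13 and 17 for AZA against Vehicle, 14 and 16 for the combination against AZA, and 16 and 14 for the combination against AG120. Among the 8 end windows of the members they were 7 and 1 for AG120 against Vehicle, 4 and 4 for AZA against Vehicle, 4 and 3 for the combination against Vehicle, 3 and 4 for the combination against AZA, and 2 and 6 for the combination against AG120. Of all end windows 46.1, 45.3, 43.1, 46.4 and 45.3% were higher in that order.

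Chfr and Zmynd10, among the 3 genes of that list with the smallest edgeR p in the combination against Vehicle, had 0% in both combination libraries. The start window of Chfr, a mitotic checkpoint ubiquitin ligase, had 5.53 and 1.21% in Vehicle (adjusted p = 0.846). The upper end of Zmynd10, a gene of motile cilia next to Rassf1, had 2.32 and 5.23% in Vehicle (adjusted p = 0.846), and its covered reads are those of the inner part of the Rassf1 start window.

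Of the sort genes, Kit had 1 and 5.87% in its start window with AG120, 0.391 and 2.34% with AZA, 3.33 and 16.8% with the combination, and 19.4 and 0.137% in Vehicle, and Itgam, the gene of Cd11b, had no kept end window. Markers of other cell types gave little to compare: 1 of 8 lymphoid, 1 of 6 erythroid and megakaryocytic, 2 of 7 stromal and endothelial, and 0 of 6 mature myeloid genes had a kept end window. Of these, the lymphoid factor gene Ebf1 had 0.128 and 11.1% in its start window with AG120, 13.2 and 3.36% with AZA, 20.01 and 10.9% with the combination, and 9.22 and 12.95% in Vehicle. The integrin gene Itga2b had 0.342 and 0%, 0.0955 and 6.31%, 3.71 and 2.79%, and 0 and 1.25% in the same order of groups. In the same order the stromal gene Cxcl12 had 18.9 and 49.1%, 17.9 and 22.6%, 52.5 and 16.3%, and 46.2 and 49.4%. The other stromal gene, Pdgfrb, had 15.7 and 64.5%, 0.228 and 3.27%, 52.1 and 0%, and 4.29 and 28.0%, the last from 25 reads. In both, the AZA libraries lay below both Vehicle libraries, as they did in 18.3% of all units, while AG120 and the combination overlapped Vehicle. Methylation of a gene end is not expression, so these values do not show which cells were sorted, and their part in the members' values was not tested.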

How the data were processed

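DNA methylation was measured in 8 libraries, 2 in each of 4 groups. The authors deposited 1 table of raw read counts, which per the file headers gives methylated and unmethylated counts for each position in each library, without normalization. In the promoter windows of the members, 352 of 358 positions lay at a CpG site. The submitters' processing notes name Bismark 0.22.3 and the build mm10, and besides them R 4.0.2 with edgeR 3.32, Trim Galore 0.4.4, bcl2fastq 2.17.1.14 and SAMtools 1.4.1, without roles. Deduplication, alignment filters and conversion rates are not given in the sources here, and every column of sample values was used (0 left out). PCR reads are not independent molecules, so limits for a count of 0 cover counting error only. A read also counts at each position it covers, so limits over several positions are too low even for that.

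Counts were summed over 5 units per RefSeq gene on the 19 autosomes and X, and units with at least 20 reads in every library were kept. Strand and promoter sequences came from RefSeq tables on GRCm38.p6, in which Cdh1 had no promoter. Counts were fitted with edgeR 4.0.16 (R 4.3.3), with a term for each library and a methylation term for each group over all 8 libraries. The test was the quasi-likelihood F-test with robust dispersions and Benjamini-Hochberg adjustment. Alternatives were edgeR's likelihood ratio test, limma 3.58.1 (pseudocount 2), DESeq2 1.42.0, other minimums, windows and positions, a replicate block and each library left out. In simulated data with known changes, the likelihood ratio test and DESeq2 called many more unchanged units than the quasi-likelihood test and limma did. The simulated libraries of a group varied around the same mean level in each unit, whereas the real ones often read different positions. The simulation therefore does not show how many of the calls here are false. All members with a kept unit were named, with Kit, Itgam and the 3 genes of the comparison list with the smallest p, of which 1 is not reported here. Marker lists were lymphoid, erythroid and megakaryocytic, stromal and endothelial, and mature myeloid genes. The members, lists and tests were chosen with earlier results of these data known.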

Additional observations from a re-analysis of the deposited data

How the results depend on the processing

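With 2 libraries a group, the quasi-likelihood test called 0 of 34578 units in each of the 8 comparisons, as it did at minimums of 1, 10 and 50 reads, with 3 positions or more, with end windows of 500 bp to each side, and with the replicate block (0 in each). Limma also called 0. The likelihood ratio test called 319 units for AG120 against Vehicle, 210 for AZA against Vehicle, 650 for the combination against Vehicle, 706 for the combination against AZA, 671 for the combination against AG120, 652 for the AG120 factor, 421 for the AZA factor and 343 for the interaction. DESeq2 called 810, 436, 1681, 1685, 1387, 1690, 1056 and 893 in that order. Among the 17 member units the likelihood ratio test called 1 in the combination against Vehicle, 1 against AG120 and 2 for the AZA factor, and DESeq2 2 in each of these, 2 in the combination against AZA and 2 for the interaction. Without 1 library in turn, 0 to 4 units were called for the AG120 factor (4 without AG120 replicate 1), 0 in the other comparisons, and 0 members in any. With only positions read in all 8 libraries, 1 unit was called for AG120 against Vehicle, 1 for the combination against Vehicle and 4 for the AG120 factor, none of them a member.

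Of 119 member differences in points, the sign turned in 7 with end windows of 500 bp, and in 0 with the other minimums. With only positions read in all 8 libraries, 56 differences could be had and the sign turned in 27, and with the unweighted mean of positions that every library read 10 times or more it turned in 12 of 21. Leaving out 1 library turned the sign in 109 of 612. A difference in points does not depend on the test. Between groups, the correlation of the libraries' deviations by replicate number ran from -0.0108 to 0.00922 over 34578 units. Levels also vary with the positions each library read, so these values show no pairing by replicate number but cannot exclude one.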
